A study of Xenopus laevis with 25 samples.

Results

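The transcripts of the microtubule and of the motors that walk on it were followed in whole frog embryos injected with a morpholino against RNF20, the ligase that places monoubiquitin on histone H2B. Members were chosen by symbol from the authors' comparison table: alpha-, beta- and gamma-tubulins with a numbered symbol, kinesins (kif), kinesin light chains (klc), subunits of cytoplasmic dynein 1 (dync1, dynll, dynlt) and dynactin subunits (dctn). This gave 85 of 22891 transcripts, under 62 of 13563 symbols, of which 80 had enough counts to be tested among 16967 tested transcripts. The untested members were dync1i1 and a minor transcript each of kif13a, kif18b, kif19 and kif22, all close to 0. The pattern leaves out tubb, whose symbol holds no number.

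The study sampled embryos at 12, 13, 14, 15 and 16 hours post fertilization (hpf), with 2 wild-type and 3 morpholino libraries of poly-A selected RNA at each hour, 10 and 15 in all. The labels name Xenopus laevis, while the transcript identifiers carry the Ensembl prefix of Xenopus tropicalis. They state morpholino injection as the treatment, name no control morpholino for the wild-type embryos, and do not say whether replicates were separate clutches, so that p-values measure only the spread between these libraries. They also do not say how many embryos were pooled in a library or whether the morpholino blocks splicing or translation.

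Microtubules are hollow polymers of alpha- and beta-tubulin pairs, nucleated from rings built around gamma-tubulin. Most kinesins move cargo or slide microtubules toward the plus end, and cytoplasmic dynein with its cofactor dynactin moves toward the minus end. In the embryo these proteins build the spindles of dividing cells, the axons of young neurons and the core of cilia, and different tubulin isotypes prevail in different cells.

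Libraries held 12757711 to 36150636 estimated counts, and members took 0.72% to 0.911% of them. Between libraries of the same hour, Pearson's r of log2(CPM + 1) over transcripts was 0.981 to 0.985 for the wild-type pair and 0.977 to 0.988 for morpholino replicates 1 and 2, but 0.875 to 0.969 for morpholino replicate 3 against either of them, with the lowest values at 16 hpf. An average difference printed for a member is therefore also given without replicate 3 where that made or ended a call or moved a called value by over 1.5 times. The rnf20 transcript itself was at 61.7 ± 13.5 CPM (counts scaled to a fixed library total) in wild type and 75.6 ± 11.9 CPM in morpholino libraries (SD, n = 10 and 15), a log2 difference of 0.31 ± 0.09 (SE, adjusted p = 0.0201). That average was not even over time. The mean was 43.3 CPM in wild type and 81.8 CPM in morpholino libraries at 12 hpf, but 74.7 and 65.1 CPM at 16 hpf. A translation-blocking morpholino can leave the mRNA level as it is and a splice-blocking one may change it. Since the labels do not give the type, this level does not settle the knockdown. Markers of epidermis, muscle, endoderm, neural plate and neurons were all present in these whole embryos. Fewer cells of a type and less RNA per cell cannot be told apart in such samples.

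In TPM, a count per length scaled to a fixed total, tubulins dominated the members. The alpha-tubulins summed to 3394 to 3732 TPM in wild-type libraries and 3149 to 4391 TPM in morpholino libraries, and the beta-tubulins of the pattern to 1114 to 1699 and 815 to 1663 TPM. The most abundant symbols in wild type were tuba3c at 1199 ± 51.9 TPM, tubb4b at 1032 ± 133 TPM, tuba4b at 943.9 ± 33.0 TPM and tuba1c at 786 ± 94.6 TPM. The dynein light chain dynll1 followed at 718 ± 55.6 TPM, far above the dynein heavy chain dync1h1 at 45.8 ± 6.63 TPM. The most abundant kinesins were kif22 at 114 ± 10.3 TPM, kif20a at 95.2 ± 9.23 TPM and kif5b at 86.4 ± 4.02 TPM. The mitotic kinesins together held 540.2 to 664 TPM in wild type, and gamma-tubulin, tubg1, 14.9 to 20.2 TPM.

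Averaged over the 5 hours, 6 of 80 members were higher in morpholino than in wild-type libraries and 15 were lower at an adjusted p under 0.05 (edgeR quasi-likelihood test, Benjamini-Hochberg over all tested transcripts). Over all transcripts 13.9% were called higher and 13.1% lower, 27% in all, so the called share of the members was near that of the transcriptome. Without replicate 3 the members gave 10 higher and 26 lower against 17.3% and 18.7% of all, and with DESeq2 10 and 18 against 17.5% and 16.1%. The median log2 difference was -0.11 over the members, with 31 of 80 above 0, and -0.0029 over all tested transcripts. Of the 21 called members, 19 had the same sign at all 5 hours. The calls rest on the mean of these same hourly differences, so this is no separate evidence for them. At every hour all morpholino libraries lay above all wild-type libraries for 1 member, kif23, and below them for 4, tubg1, tubb2b, kif20b and a klc1 transcript, where 3.44% and 4.47% of all tested transcripts did so.

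**Figure D1:**
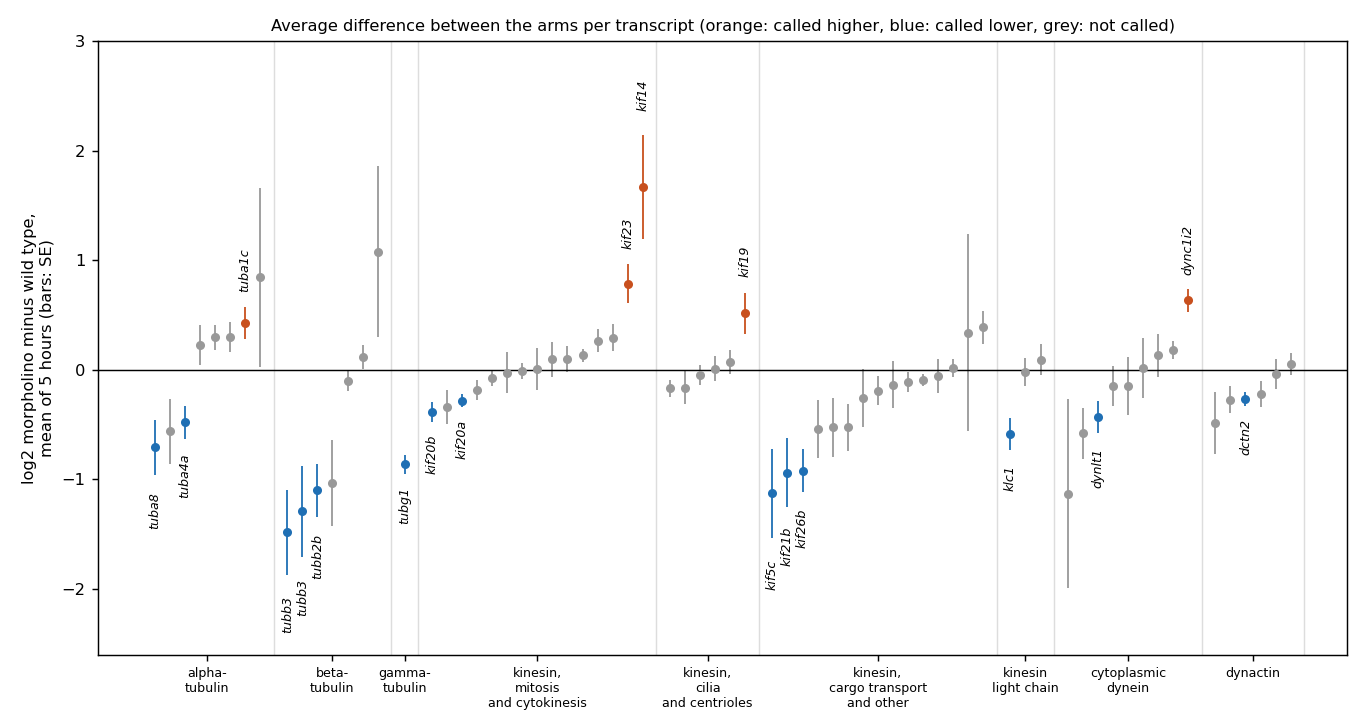
Log2 morpholino minus wild type, the mean of the 5 hourly differences with its SE, for the 70 tested members with an average log2 CPM of at least 0 (a called tuba3e transcript off the scale is left out), ordered within each family. Called members lie on both sides of 0 in the tubulins and the mitotic kinesins, and the called cargo kinesins lie below 0.

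Gamma-tubulin was lower in every morpholino library than in any wild-type library. Tubg1, which seeds new microtubules at centrosomes and basal bodies, was at 12.0 and 13.3 CPM in wild type and 8.18, 7.12 and 7.43 CPM in morpholino libraries at 12 hpf. At 14 hpf the values were 12.9 and 11.9 CPM against 8.08, 6.08 and 6.63 CPM, and at 16 hpf 12.5 and 15.2 CPM against 6.78, 7.71 and 6.69 CPM. The wild-type libraries spanned 11.7 to 15.2 CPM (median 12.6) and the morpholino libraries 5.76 to 8.38 CPM (median 7.12), with no overlap over all 25 libraries. The mean was 12.8 ± 1.05 CPM (SD, n = 10) against 7.05 ± 0.87 CPM (n = 15), a log2 difference of -0.86 ± 0.09 (adjusted p = 5.95e-06). It was -0.85 without replicate 3, lay between -0.89 and -0.83 when any 1 library was left out, and ranged from -0.74 at 12 hpf to -0.97 at 16 hpf. Its estimated count was a whole number in all 25 libraries, whereas a count divided between similar transcripts comes out fractional. In the authors' deposited table for 13 hpf tubg1 had a q-value of 0.0336 and a difference of -0.89 on the log2 scale in the same direction.

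The partners of gamma-tubulin went in both directions. Of 18 tested transcripts of the gamma-tubulin ring and its recruiters, 5 rose and 2 fell, beside 13.9% and 13.1% of all tested transcripts, and 14 had a positive difference, with a median of 0.11. Tubgcp2, a core subunit of the ring, was at 10.9 ± 0.78 CPM in wild type and 14.2 ± 1.45 CPM in morpholino libraries, a log2 difference of 0.38 ± 0.08 (adjusted p = 0.00242). Nedd1, which recruits the ring to centrosomes and spindles, rose by 0.43 ± 0.11 on the log2 scale (adjusted p = 0.00835), and tubgcp6 rose by 0.45 ± 0.12 in 1 of its 2 transcripts (adjusted p = 0.0115). Tubgcp5 fell by 0.42 ± 0.12 and haus6, of the augmin complex that branches spindle microtubules, fell by 0.37 ± 0.07 on the log2 scale (adjusted p = 0.0205 and 0.00156).

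**Figure D2:**
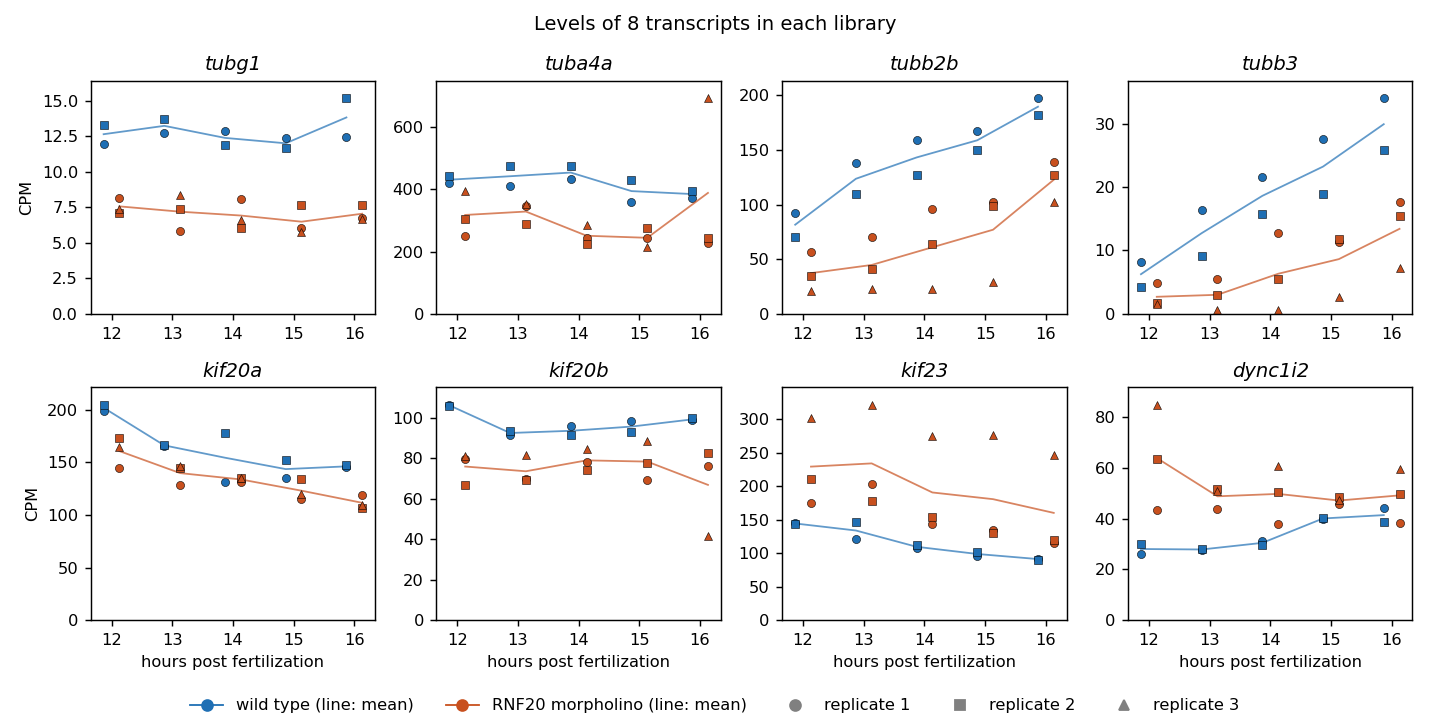
CPM of 8 transcripts in each of the 25 libraries against hours post fertilization, with blue for wild type, orange for morpholino, lines through the hourly means and marker shapes for the replicate number. For tubg1 the arms do not overlap at any hour. For tubb2b, tubb3 and kif23 morpholino replicate 3 (triangles) lies farthest from wild type.

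Among the alpha-tubulins 2 transcripts of 9 rose and 2 fell, beside 13.9% and 13.1% of all tested transcripts. Tuba4a, an alpha-tubulin made without the terminal tyrosine that other alpha-tubulins carry in mammals, had wild-type libraries between 357 and 473 CPM (median 425) and morpholino libraries between 214 and 691 CPM (median 276). At 14 hpf it was at 432 and 473 CPM in wild type against 244, 224 and 284 CPM, and at 16 hpf at 373 and 395 CPM against 228, 245 and 691 CPM. In CPM all morpholino libraries lay under both wild-type ones at each hour, except replicate 3 at 16 hpf. In TPM there was no exception, with 410 to 492 TPM in wild-type and 201 to 378 TPM in morpholino libraries. The log2 difference of counts was -0.48 ± 0.15 (adjusted p = 0.0255), and -0.67 without replicate 3 (adjusted p = 3.44e-06). In the authors' deposited table tuba4a was the only member with a q-value under 0.05 at 14 hpf (q = 6.30e-04).

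Tuba4a also took a smaller share of all alpha-tubulin. It made up 12.7 ± 0.46% of alpha-tubulin TPM in wild-type libraries (12.1% to 13.4%, n = 10) and 7.74 ± 0.97% in morpholino libraries (6.38% to 10.2%, n = 15). The 2 ranges did not overlap, and the hourly means were 12.6%, 12.9%, 13.1%, 12.5% and 12.2% in wild type against 8.40%, 8.17%, 7.13%, 7.20% and 7.77%. This share is a description and was not tested. The tuba4a count was whole in only 1 of 25 libraries, so part of its reads was divided with similar transcripts.

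Of the other alpha-tubulins, tuba1c and a tuba3e transcript rose and tuba8 fell. Tuba1c, a widespread isotype, was at 1054 ± 164 CPM in wild type and 1422 ± 485 CPM in morpholino libraries, a log2 difference of 0.43 ± 0.15 (adjusted p = 0.0421). That call was lost for 18 of the 25 single libraries left out, and morpholino replicate 3 at 16 hpf held 2983 CPM against 974 and 1030 CPM in the other morpholino libraries of that hour. In TPM tuba1c was at most 1144 in any morpholino library, and the morpholino mean at 16 hpf was 886. Without replicate 3 the difference was 0.25 (adjusted p = 0.0131). The abundant tuba3c differed by 0.30 ± 0.11 (adjusted p = 0.0602), which passed at 0.23 without replicate 3 (adjusted p = 3.66e-04) and with DESeq2 (adjusted p = 0.0341). Tuba1b, at 93.1 ± 51.7 against 61.0 ± 30.5 CPM, differed by -0.56 ± 0.30 (adjusted p = 0.164). Tuba1a was at 9.18 ± 2.36 and 10.9 ± 5.29 CPM, with a difference of 0.23 ± 0.18 (adjusted p = 0.366). A tuba3e transcript rose from 0.40 ± 0.70 to 3.75 ± 2.62 CPM (adjusted p = 0.00649). Its fitted fold depends on wild-type libraries at or near 0, and the sum of both tuba3e transcripts had a log2 difference of 1.73 ± 0.38 (adjusted p = 0.00306). Tuba8, named after its values were seen, fell by 0.71 ± 0.25 on the log2 scale (adjusted p = 0.0453) and stood at -0.42 without replicate 3 (adjusted p = 0.0160). Its morpholino libraries of 14 to 16 hpf stood 0.17 above wild-type libraries 2 hours younger (adjusted p = 0.888).

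**Figure D3:**
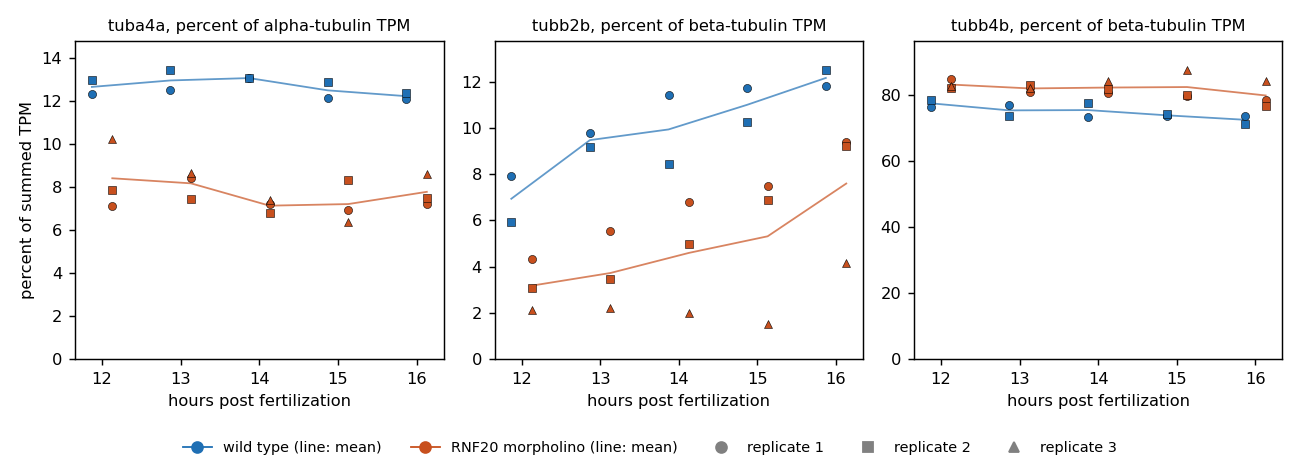
Share of tuba4a in the TPM of all alpha-tubulin members, and of tubb2b and tubb4b in that of all beta-tubulin members (tubb excluded), in percent per library against hours post fertilization, with lines through the hourly means. Every tuba4a share in morpholino libraries lies under every wild-type share, and the tubb2b share rises with time in wild type.

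The neural beta-tubulins were lower in morpholino embryos, and their values went up with time in both arms. Of 8 beta-tubulin transcripts 3 fell and none rose, beside 13.1% and 13.9% of all tested transcripts. Those that fell were tubb2b and the 2 transcripts of tubb3. Tubb2b, known in Xenopus as N-tubulin and a marker of the first differentiating neurons, was at 92.6 and 70.6 CPM in wild type against 56.6, 34.4 and 21.0 CPM in morpholino libraries at 12 hpf. At 14 hpf it was at 159 and 127 CPM against 95.9, 64.1 and 23.0 CPM, and at 16 hpf at 197 and 182 CPM against 139, 127 and 102 CPM. The arms were apart at each hour, and replicate 3 was the lowest morpholino library at all 5. The log2 difference was -1.10 ± 0.24 (adjusted p = 0.00458), and -0.80 without replicate 3 (adjusted p = 3.68e-04).

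Tubb3, the class III beta-tubulin of neurons, followed the same course at a lower level. Its main transcript spanned 4.27 to 34.0 CPM in wild type (median 17.6) and 0.60 to 17.6 CPM in morpholino libraries (median 5.44), ranges that overlap over all hours. The log2 difference was -1.48 ± 0.39 (adjusted p = 0.0114) for that transcript, -1.29 ± 0.42 (adjusted p = 0.0306) for the second one, and -1.44 ± 0.36 for their sum. Replicate 3 again lay farthest from wild type at all 5 hours, and without it the main transcript stood at -1.07 and the second at -0.88 (adjusted p = 0.00259 and 0.00938). Tubb6 went from 10.1 ± 3.84 to 5.25 ± 3.89 CPM, a difference of -1.03 ± 0.39 that missed the threshold (adjusted p = 0.0579). It passed at -0.59 without replicate 3 (adjusted p = 0.00534), at -1.03 with DESeq2 (adjusted p = 0.0324) and at -0.91 counted per symbol (adjusted p = 0.0319). The reads of tubb3 were divided with similar transcripts, which may be its own second one, in all but 1 library, and those of tubb2b in 8 of 25.

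Neuron markers were measured beside these tubulins. Of 11 tested neuron marker transcripts none rose and 3 fell, where 13.1% of all tested transcripts fell and 27% were called in either direction. Elavl4 fell from 3.17 to 0.784 CPM, neurod1 from 8.30 to 3.79 CPM and dcx from 3.26 to 1.33 CPM, while isl1 stood at 24.7 and 24.8 CPM. The median log2 difference of the list was -0.30, no marker symbol found was at 0 in an arm, and 1 neurod4 transcript of 2 was close to 0 in both. The summed level of the list was 253 to 290 CPM in wild type and 94.6 to 330 CPM in morpholino libraries, ranges that overlap. The lowest sum was that of replicate 3 at 16 hpf, where the epidermis list was at 30530 CPM against 13280 to 18190 CPM in the other morpholino libraries. The part of these markers in the tubulin result was not tested.

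Tubb4b, the beta-tubulin found in ciliary axonemes, did not pass the test at 902 ± 99.0 against 988 ± 282 CPM (log2 difference 0.11 ± 0.11, adjusted p = 0.459). Its share of the beta-tubulin members was 74.9 ± 2.30% in wild type and 81.9 ± 2.70% in morpholino libraries, higher in the morpholino mean at all 5 hours. The tubb2b share went the other way, from 9.90 ± 2.07% to 4.89 ± 2.60%. The higher tubb4b share came without a higher tubb4b mean in TPM, which was 1032 ± 133 in wild type and 985 ± 200 in morpholino libraries. The sum of the beta-tubulin members was lower, at 1380 ± 193 and 1203 ± 241 TPM. Both shares leave out tubb, which was at 1999 ± 159 CPM and 1957 ± 312 CPM. Tubb had a mean of 1266 TPM over all libraries, so both shares would be much smaller with it included. Tubb4a, at 256 ± 15.1 and 239 ± 46.2 CPM, did not pass the test either (log2 -0.10, adjusted p = 0.411), but did so at -0.19 without replicate 3 (adjusted p = 0.00712). Multiciliated cell markers, of which 4 transcripts of 8 rose and 1 fell beside 13.9% and 13.1% of all tested transcripts, summed to 133 to 336 CPM in wild type and 173 to 390 CPM in morpholino libraries. Over time 4 of these 8 transcripts fell in wild type, where 0.996% of all did. The part of these markers in the tubb4b share was not tested.

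The kinesins of mitosis and cytokinesis split within the family. Of 16 tested transcripts 2 rose and 2 fell, beside 13.9% and 13.1% of all. A positive difference was seen in 9 of the 16, and the median was 0.05. Kif23, the motor of centralspindlin that builds the midzone between separating chromosomes, was at 145 and 144 CPM in wild type against 175, 212 and 302 CPM in morpholino libraries at 12 hpf. At 14 hpf it was at 108 and 112 CPM against 144, 155 and 275 CPM, and at 16 hpf at 92.3 and 90.8 CPM against 116, 119 and 247 CPM. The arms were apart at each hour, and replicate 3 was the highest library at all 5. The log2 difference was 0.79 ± 0.18 (adjusted p = 0.00480), 0.43 without replicate 3 (adjusted p = 2.20e-05) and 0.68 ± 0.16 for the sum of both kif23 transcripts. Its count was fractional in every library, so part of its reads was divided with similar transcripts, which may be its own second one.

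Kif20a and kif20b, both motors of the late spindle and of cytokinesis, went the other way. Kif20a fell from 162 ± 25.2 to 134 ± 19.0 CPM, a log2 difference of -0.28 ± 0.06 (adjusted p = 0.00413), with overlapping ranges of 131 to 205 and 106 to 173 CPM. Counted over both of its transcripts the difference was -0.18 ± 0.06 (adjusted p = 0.0357). Kif20b fell from 97.4 ± 5.50 to 74.7 ± 11.1 CPM, a difference of -0.38 ± 0.09 (adjusted p = 0.00679). All wild-type libraries of kif20b, from 91.3 to 106 CPM, lay above all morpholino libraries, from 41.7 to 88.4 CPM, and the lowest was replicate 3 at 16 hpf. The minor transcript of kif14, a kinesin of the midbody, rose from 0.85 ± 0.40 to 2.77 ± 2.57 CPM (log2 1.67 ± 0.48, adjusted p = 0.0176). Replicate 3 lay farthest from wild type at all 5 hours, and without it that difference was 0.49 and no longer called (adjusted p = 0.0519). The kif14 sum stood at -0.22 ± 0.12 (adjusted p = 0.158). The main kif14 transcript, added after its values were seen, was not called with all libraries. It stood at -0.17 without replicate 3 (adjusted p = 0.00961) and at -0.33 with DESeq2 (adjusted p = 0.0816).

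Of the other spindle motors, kif11, kif4a, kif2c and kif15 did not pass the test with all libraries but did without replicate 3. Kif11, which slides spindle poles apart, was at 116 ± 11.01 and 125 ± 33.5 CPM (log2 0.10 ± 0.12, adjusted p = 0.560), and its sign turned to -0.13 without replicate 3 (adjusted p = 0.0168). Kif4a, a motor of chromosome arms, was at 124 ± 9.31 and 137 ± 19.9 CPM (0.13 ± 0.06, adjusted p = 0.119). Its difference was 0.098 without replicate 3 (adjusted p = 0.0315) and 0.14 with DESeq2 (adjusted p = 0.0389). Kif2c, which dismantles microtubule ends at centromeres, was at 49.0 ± 4.24 and 46.6 ± 5.72 CPM (-0.07 ± 0.08, adjusted p = 0.496), and stood at -0.15 without replicate 3 (adjusted p = 0.0401). Kif15, a spindle motor named after its values were seen, was at 90.1 ± 4.31 and 79.9 ± 15.3 CPM (-0.18 ± 0.09, adjusted p = 0.154), and stood at -0.27 without replicate 3 (adjusted p = 9.58e-05).

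Kinesins of cilia and centrioles gave 1 rise and 1 fall among 7 tested transcripts, beside 13.9% and 13.1% of all. Both were in genes named after their values were seen. Kif19, which shortens the tips of motile cilia in mice, rose from 7.05 ± 1.07 to 10.3 ± 3.70 CPM (log2 0.52 ± 0.19, adjusted p = 0.0476), and stood at 0.41 without replicate 3 (adjusted p = 0.0210). At 12 hpf it was at 6.30 and 7.58 CPM in wild type against 8.18, 15.4 and 18.1 CPM, and at 16 hpf at 7.23 and 6.68 CPM against 10.4, 8.54 and 3.13 CPM, so that the arms were apart at 12 hpf and overlapped at 16 hpf. Kif3c fell from 0.81 ± 0.69 to 0.26 ± 0.34 CPM (log2 -1.59 ± 0.52, adjusted p = 0.0335). Its morpholino libraries of 14 to 16 hpf stood 0.30 above wild-type libraries 2 hours younger (adjusted p = 0.905). The motor subunits of the kinesin that drives intraflagellar transport did not pass the test. Kif3a was at 14.3 ± 1.47 and 14.5 ± 2.84 CPM (log2 0.01 ± 0.11, adjusted p = 0.975), and kif3b at 32.7 ± 2.50 and 29.4 ± 7.11 CPM (-0.16 ± 0.15, adjusted p = 0.457). Their partner kifap3, in the list of other kinesin-like genes, fell by 0.64 ± 0.19 on the log2 scale (adjusted p = 0.0205). Kif7, which works in Hedgehog signalling at the cilium tip, was at 39.0 ± 3.88 and 34.6 ± 4.84 CPM (-0.17 ± 0.08, adjusted p = 0.111). Kif17 was not among the symbols.

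Of 21 cargo and other kinesin transcripts 3 fell and none rose, beside 13.1% and 13.9% of all tested transcripts, and 4 had a positive difference. The group holds kif1bp, a kinesin-binding protein matched by its symbol and named after its values were seen. The sum of its 2 transcripts rose by 0.34 ± 0.11 (adjusted p = 0.0283). In 1 of them the difference was 0.40 with DESeq2 (adjusted p = 0.0334) and 0.26 without replicate 3 (adjusted p = 0.133). Kif26b, an atypical kinesin needed for kidney formation in mice, was at 3.22 ± 0.96 CPM in wild type and 1.66 ± 0.53 CPM in morpholino libraries. Its wild-type values went from 1.96 and 2.88 CPM at 12 hpf to 4.64 and 4.28 CPM at 16 hpf, when morpholino libraries held 2.10, 1.43 and 0.76 CPM. The log2 difference was -0.92 ± 0.20 (adjusted p = 0.00384), from -0.29 at 12 hpf to -1.63 at 16 hpf. Kif21b and kif5c, 2 kinesins best known from neurons, were named after their values were seen. Kif21b went from 4.998 ± 2.36 to 2.46 ± 1.40 CPM (log2 -0.94 ± 0.31, adjusted p = 0.0357), and kif5c from 1.56 ± 0.98 to 0.69 ± 0.55 CPM (-1.13 ± 0.41, adjusted p = 0.0488). Without replicate 3 they stood at -0.60 and -0.69 (adjusted p = 0.00839 and 0.0383), and, also against wild type 2 hours earlier, at 0.18 and 0.31 (adjusted p = 0.606 and 0.546). Kif5b, the widespread conventional kinesin, was at 156 ± 8.38 and 137 ± 27.5 CPM (-0.19 ± 0.13, adjusted p = 0.298), and at -0.11 without replicate 3 (adjusted p = 0.0118). Kif26a was at 186 ± 15.9 and 131 ± 52.2 CPM (-0.52 ± 0.21, adjusted p = 0.0747), which passed at -0.26 without replicate 3 (adjusted p = 0.00978) and at -0.52 with DESeq2 (adjusted p = 0.0471). Kif1a, a motor of synaptic vesicles, was at most 2.23 CPM in any library (adjusted p = 0.187).

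The light chain klc1, which couples conventional kinesin to cargo, fell in 1 of its 3 transcripts. That transcript was at 9.59 ± 1.90 and 6.35 ± 1.90 CPM, a log2 difference of -0.59 ± 0.15 (adjusted p = 0.00871), between -0.63 and -0.56 at each hour. Without replicate 3 it stood at -0.43 (adjusted p = 8.58e-04). The other transcripts differed by 0.09 ± 0.14, or 0.25 without replicate 3 (adjusted p = 0.0369), and by -0.02 ± 0.13, and the klc1 sum by -0.09 ± 0.08 (adjusted p = 0.428). None of the 3 transcripts had a whole count in any library. The fall of 1 transcript may therefore depend on how shared reads were divided, which was not tested.

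Cytoplasmic dynein gave 1 rise and 1 fall among 9 tested transcripts, beside 13.9% and 13.1% of all. Dync1i2, the intermediate chain that holds the motor to dynactin, was at 25.9 and 30.2 CPM in wild type against 43.2, 63.4 and 84.7 CPM in morpholino libraries at 12 hpf. At 14 hpf it was at 31.1 and 29.8 CPM against 37.9, 50.4 and 60.8 CPM, and at 16 hpf at 44.1 and 38.6 CPM against 38.1, 49.6 and 59.6 CPM. The arms were apart up to 15 hpf and overlapped at 16 hpf. The log2 difference was 0.64 ± 0.11 (adjusted p = 7.92e-04), 0.51 without replicate 3 (adjusted p = 4.27e-04) and 0.59 ± 0.10 for the symbol. Dynlt1, a light chain, fell from 9.87 ± 1.31 to 7.37 ± 1.97 CPM (-0.43 ± 0.15, adjusted p = 0.0397), a call lost for 15 of the 25 single libraries left out and, at -0.33, without replicate 3 (adjusted p = 0.0530).

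The heavy chain dync1h1, at 392 ± 49.8 and 354 ± 111 CPM, did not pass the test (log2 -0.15 ± 0.18, adjusted p = 0.580). The light chain dynll1 was at 213 ± 14.3 and 196 ± 85.5 CPM (-0.14 ± 0.27, adjusted p = 0.726). In replicate 3 it held 78.6, 89.2, 79.6 and 41.2 CPM from 12 to 15 hpf, under every other library, and 339 CPM at 16 hpf, above every other. In TPM the 16 hpf value was not the highest. All cytoplasmic dynein members summed to 838 TPM in that library, while dynll1 alone reached 868.5 TPM in another morpholino library. Without replicate 3 the dynll1 difference was 0.11 (adjusted p = 0.0343). In dynactin 1 of 6 transcripts fell, beside 13.1% of all tested transcripts: dctn2, or dynamitin, went from 48.5 ± 8.49 to 40.1 ± 5.67 CPM (-0.27 ± 0.07, adjusted p = 0.00953). Dctn1, whose product grips the microtubule, was at 22.8 ± 4.74 and 19.5 ± 5.396 CPM (-0.22 ± 0.12, adjusted p = 0.164), and dctn6 at 32.9 ± 1.91 and 27.4 ± 6.17 CPM (-0.27 ± 0.12, adjusted p = 0.103), or -0.14 without replicate 3 (adjusted p = 0.0298).

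Genes that act on microtubules were counted beside the members, and 13.9% of all tested transcripts rose and 13.1% fell, 27% in all. None of 26 tested transcripts of tubulin-modifying enzymes rose and 8 fell, with a median log2 difference of -0.23. Atat1, the tubulin acetylase, fell in both of its transcripts, by 0.98 ± 0.27 and 1.13 ± 0.39 on the log2 scale (adjusted p = 0.0154 and 0.0381). Ttl, which restores the terminal tyrosine of alpha-tubulin, fell by 0.69 ± 0.18, and vash1, which removes it, fell by 0.61 ± 0.15 (adjusted p = 0.0119 and 0.00762). Of 55 transcripts of microtubule-associated proteins 6 rose and 9 fell. The spindle proteins ckap2, by 1.39 ± 0.24, and tacc3, by 0.62 ± 0.12 and 0.55 ± 0.10 in its transcripts, rose (adjusted p = 8.99e-04, 0.00268 and 0.00161). The neuronal mapt fell by 1.28 ± 0.30 and 1.87 ± 0.39 in its transcripts, and map1a fell by 0.89 ± 0.23 on the log2 scale (adjusted p = 0.00696, 0.00361 and 0.0103). Of 13 transcripts for tubulin folding 1 rose and 1 fell, of 31 for dynein adaptors and regulators 6 rose and 3 fell, and of 11 for other kinesin-like genes none rose and 3 fell.

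The comparison with younger wild-type embryos asked whether a difference remained when morpholino embryos were set against wild type of an earlier hour. It shares the morpholino libraries, and some wild-type ones, with the comparison at equal hours. With the same morpholino libraries, the values of a transcript against the 2 references differ only by its wild-type change between them. A difference shrinks or turns where that change has the opposite sign, and grows where it has the same sign. Morpholino libraries of 14 to 16 hpf against wild type 2 hours earlier gave 1 member higher and 2 lower, where 1.2% and 1.03% of all transcripts were called. These were dync1i2 at 0.76 (adjusted p = 0.00526), tubg1 at -0.90 (adjusted p = 1.86e-04) and kif20a at -0.50 (adjusted p = 0.00139). At equal hours, 14 to 16 hpf only, the same transcripts stood at 0.40, -0.90 and -0.27 (adjusted p = 0.0792, 1.27e-04 and 0.0401), so dync1i2 was not called there. Dync1i2 rose and kif20a fell in wild type, so both differences had to be larger against the younger reference. In the setting of equal hours 2 members were called higher and 4 lower against 4.58% and 3.6% of all. Against wild type 1 hour earlier 1 was higher and 4 were lower, against 3.36% and 2.62% of all.

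Several other called members stood nearer 0 with the younger reference. Tubb2b stood at -0.97 at equal hours and at -0.44 with the reference 2 hours younger (adjusted p = 0.0629 and 0.579), and the main tubb3 transcript at -1.38 and -0.34 (adjusted p = 0.0871 and 0.833). Kif26b went from -1.27 to -0.74 (adjusted p = 0.00597 and 0.155), and kif23 from 0.82 to 0.46 (adjusted p = 0.0345 and 0.371). Dctn2 went from -0.35 to -0.02 (adjusted p = 0.0209 and 0.966). Tuba4a, which was a little lower in the later than in the earlier wild-type libraries, stood no nearer 0, at -0.51 and -0.62 (adjusted p = 0.0988 and 0.107). Without replicate 3 this reference gave 8 members higher and 11 lower against 7.74% and 9% of all, and the one 1 hour younger 5 and 13 against 8.49% and 9.27%, settings chosen after seeing the data. At 2 hours the values were -0.86 for tuba4a (adjusted p = 1.52e-05), -0.85 for tubg1 (adjusted p = 1.84e-04), -0.14 for tubb2b (adjusted p = 0.615) and 0.04 for kif23 (adjusted p = 0.678). For each member the difference between the 2 references is its wild-type change alone. It was not tested, and it says nothing about the morpholino arm.

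**Figure D4:**
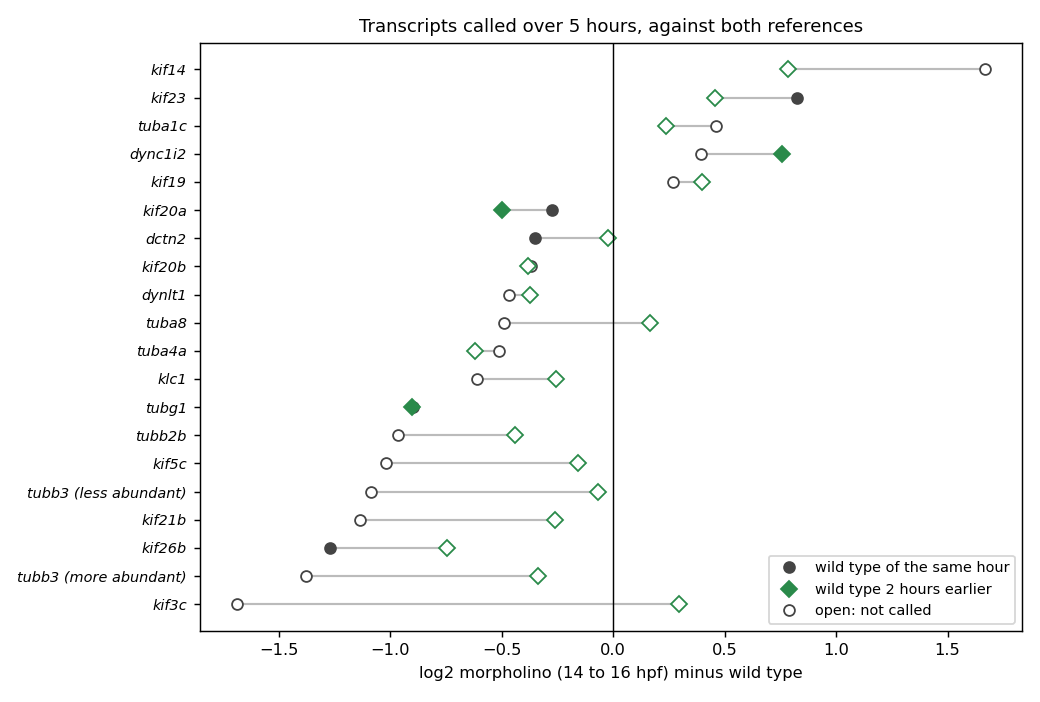
Log2 morpholino (14 to 16 hpf) minus wild type of the same hour (circles) and minus wild type 2 hours earlier (diamonds) for 20 of the 21 called members (a tuba3e transcript is left out, and kif14 and klc1 stand for 1 transcript each), open where not called. The tubg1 symbols coincide near -0.90, while those of tubb2b and tubb3 lie nearer 0 for the younger reference.

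Over time, wild-type libraries gave 1 called rise, dctn2 at 0.16 ± 0.04 log2 per hour (adjusted p = 0.0297), and no fall among 80 members, where 1.19% and 0.996% of all transcripts were called. Without adjustment 22 of 80 members had p under 0.05, and 20.2% of all transcripts did. These slopes use no morpholino group mean, but all groups share 1 estimate of spread. Without morpholino replicate 3 the same contrast gave 23 rises and 13 falls, so the few calls do not show flat wild-type levels. The share over all transcripts is not given for that setting. With the replicate number as a block within each arm, which for wild type pairs the libraries of the time course, 16 members rose and 6 fell, against 10.8% and 8.49% of all. In that fit tubb2b rose by 0.28 ± 0.07 and the main tubb3 transcript by 0.55 ± 0.11 log2 per hour (adjusted p = 0.00795 and 0.00332). The 6 falls were all mitotic kinesins: kif11, kif20a, kif22, the minor kif14 transcript and both kif23 transcripts. Kif20a fell by 0.11 ± 0.03 and the main kif23 transcript fell by 0.18 ± 0.03 log2 per hour (adjusted p = 0.0107 and 0.00135).

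In morpholino libraries 9 members rose and 6 fell without the block, against 10.4% and 7.25% of all transcripts, and 14 and 12 with it, against 18.6% and 14.2%. The rises included 4 of 8 beta-tubulin transcripts and the falls 5 of 16 mitotic kinesin transcripts. Tubb2b rose by 0.42 ± 0.11, tubb3 by 0.61 ± 0.19 and tubb4b by 0.16 ± 0.05 log2 per hour (adjusted p = 0.0187, 0.0314 and 0.0299). Kif20a fell by 0.12 ± 0.03 and kif4a fell by 0.10 ± 0.03 log2 per hour (adjusted p = 0.00817 and 0.0188). Signs ran alike in both arms within these families. A positive slope was seen in 7 of 8 beta-tubulin transcripts in each arm. A negative slope was seen in 15 of 16 mitotic kinesin transcripts in wild type and 14 in morpholino libraries. Over all 16967 tested transcripts, 8761 had a positive slope in wild type and 9057 in morpholino libraries. Several of the counted transcripts belong to the same gene, as for tubb3 and kif23, so they are not separate cases.

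No member, and no transcript of 16967, had a different slope in the 2 arms at an adjusted p under 0.05 (edgeR, and no member with DESeq2), while 3 of 80 members and 3.69% of all transcripts had an unadjusted p under 0.05. The smallest p was that of dync1i2, whose slope was 0.16 ± 0.06 in wild type and -0.08 ± 0.05 log2 per hour in morpholino libraries, a difference of -0.25 ± 0.07 (unadjusted p = 0.00420, adjusted p = 0.9999). Kif26b followed with -0.33 ± 0.14 and tuba1a with 0.29 ± 0.13 (unadjusted p = 0.0294 and 0.0373).

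**Figure D5:**
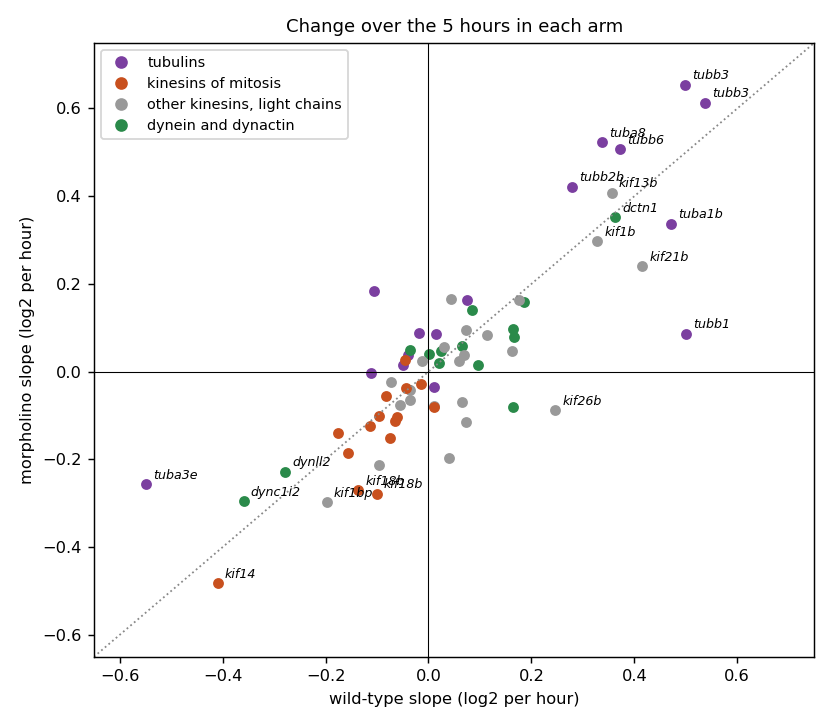
Slope over the 5 hours in log2 per hour in wild type (horizontal) and morpholino libraries (vertical) for 68 members with an average log2 CPM of at least 1 (a tuba3e transcript off the scale is left out), without the replicate block, where the dotted line marks equal slopes and a symbol may stand for 1 of several transcripts. Tubb2b and tubb3 lie at the upper right, and most mitotic kinesins lie under 0 on both axes.

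The calls above treat libraries of different hours as separate samples. When the libraries of each replicate number were summed over the hours, 2 wild-type sums against 3 morpholino sums, no member and no transcript of 18123 was called (edgeR), and 7 of 80 members and 1917 transcripts had an unadjusted p under 0.05. The sums gave tubg1 a log2 difference of -0.87 (adjusted p = 0.396), tubb2b -1.01 and kif23 0.76 (adjusted p = 0.454 for both). In the authors' deposited tables, which test each hour alone, members with a q-value under 0.05 numbered 0, 4, 1, 0 and 0 from 12 to 16 hpf, where 0.834%, 5.82%, 1.06%, 0.603% and 0.0434% of all transcripts passed. The 4 members at 13 hpf were tubg1 and kif1b, lower in morpholino embryos, and tuba1c and dync1i2, higher.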

How the data were processed

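RNA-seq libraries of whole embryos (10 wild type, 15 RNF20 morpholino) were analysed from the authors' deposited tables. The authors' estimated counts and TPM per transcript came from kallisto, and their effects (natural log) and q-values for each hour from sleuth, per the submitters' processing notes. No version, transcriptome build or option is given in the sources used here. Deposited effects run opposite to morpholino minus wild type (Pearson's r across 5051 transcripts -0.99 to -0.94), so signs were turned and values divided by the natural log of 2.

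Estimated counts were rounded. Transcripts were kept with filterByExpr, scaled by TMM and fitted by arm and hour with edgeR 4.0.16 (R 4.3.3, limma 3.58.1). The quasi-likelihood test gave the mean of the 5 hourly differences, the slope in each arm and the difference of slopes, adjusted by Benjamini-Hochberg over 16967 transcripts, with 0.05 as the threshold. These contrasts were tried on simulated counts with a single dispersion and no replicate effect, where known slopes were set in wild type only. The alternatives were not simulated. CPM are TMM-scaled. A count within 0.001 of a whole number was called whole. Library totals were 12757711 to 36150636, and low transcripts are the least precise.

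Alternatives were DESeq2 1.42.0, relative log expression factors, no filter, counts per symbol, a replicate block, omission of each library and of morpholino replicate 3, younger wild type, 14 to 16 hpf only and sums over hours. Comparisons with younger wild type that also omit replicate 3 were chosen after seeing the data. Wild-type replicate numbers paired the time course: deviations from group means correlated at 0.188 to 0.292 in all 10 pairs of hours. Morpholino numbers 1 and 3 correlated at 0.135 to 0.591 and 0.221 to 0.697 in all 10 pairs of hours, and number 2 at 0.0385 to 0.32. Morpholino libraries of 1 number were thus also alike across hours, which the main fit, without a replicate block, leaves out. Wild-type with morpholino libraries of the same hour correlated at 0.0853 to 0.309 for number 1, over 0.1 in 4 of 5 pairs. For number 2 they ranged from -0.119 to 0.1. The main fit did not take the arms as paired, although number 1 may link them, and a block shared by both arms was an alternative.

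Named were fixed symbols of each family, the 12 members with the smallest p for the average difference, the 4 steepest called wild-type rises and falls, the 4 smallest p for the slope difference, the 2 most abundant of each family and those whose arms did not overlap at any hour. The members and lists were chosen with earlier results of these data known. The lists covered the gamma-tubulin ring, tubulin folding, tubulin modification, microtubule-associated proteins, dynein adaptors, other kinesin-like genes and markers of 7 tissues. Sequences were not used here.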

Additional observations from a re-analysis of the deposited data

How the results depend on the processing

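Among the members' average differences, 6 higher and 15 lower, the counts became 10 and 26 without morpholino replicate 3, 1 and 4 against wild type 1 hour earlier, 1 and 2 against wild type 2 hours earlier, 2 and 4 at 14 to 16 hpf only, 0 and 0 for sums over hours, and 10 higher with DESeq2. Rising and falling wild-type slopes, 1 and 0, became 17 and 6 with a replicate block shared by both arms, 16 and 6 with the replicate block within each arm, 23 and 13 without replicate 3, 6 and 1 with DESeq2, and 2 rises per symbol. Morpholino slopes, 9 and 6, became 14 and 13, 14 and 12, and 20 and 16 under the first 3 of these, and 15 rises with DESeq2. With single libraries left out, average differences ranged from 4 to 9 higher and 9 to 21 lower, wild-type slopes from 0 to 9 and 0 to 3, morpholino slopes from 1 to 19 and 1 to 14, and slope differences stayed at 0. The shares over all transcripts moved with the setting too. Wild-type rises and falls were 1.19% and 0.996% of all in the main fit, and 10.8% and 8.49% with the block within each arm. Such shares are not given for the other slope settings or for single libraries left out, so these counts show nothing particular to the members. Among members named by the rule, signs that turned with a call in either fit were kif11 at -0.13 with the block and without replicate 3, and -0.35 and -0.21 without it against wild type 2 and 1 hours earlier, dynll1 at 0.11 and, for the morpholino slope, -0.067, and tuba3c and tuba4a at -0.052 and -0.074 per hour without replicate 3. With single libraries left out, kif11 ranged from 0.044 to 0.13, and the morpholino slopes of dynll1 from -0.026 to 0.096, tuba3c from -0.062 to 0.077 and tuba4a from -0.13 (without replicate 3 at 16 hpf) to 0.069. Without replicate 3 and against wild type 2 hours earlier, dctn1 stood at 0.32, the kif14 transcript at -0.51, tuba1c at -0.040 and tubb3 at 0.087, and per symbol kif14 stood at -0.22. Among other transcripts, the same happened without replicate 3 for the second tuba3e transcript, at -2.10, and, also against wild type 2 hours earlier, for tuba8 at 0.38 (0.17 with replicate 3), the second tubb3 transcript at 0.37, kif21b at 0.18, kif5c at 0.31, kif3c at 0.69 (0.30 with replicate 3), kif13b at 0.66, kif1b at 0.49, dynll2 at -0.99 and the second kif18b transcript at -0.33. Signs also turned where neither fit made a call, as for tuba1b, at 0.30, and dync1h1, at 0.18, in that setting. The causes were not tested. DESeq2 gave no adjusted p for 2 members. Transcripts near 1 CPM rest on few reads, so a missed threshold there does not show equal levels.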

Other observations

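Tubulin symbols outside the name pattern were also measured. Tubb, the most abundant of them, was at 1999 ± 159 CPM in wild type (SD, n = 10) and 1957 ± 312 CPM in morpholino libraries (n = 15), a log2 difference of -0.03 ± 0.08 (SE, edgeR adjusted p = 0.812). Delta-tubulin, tubd1, a tubulin of centrioles, was at 3.80 ± 0.61 and 2.56 ± 1.42 CPM, a log2 difference of -0.64 ± 0.30 (adjusted p = 0.122). Epsilon-tubulin, tube1, was at 1.98 ± 0.83 and 1.53 ± 0.66 CPM in its main transcript (adjusted p = 0.525).

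Rnf40, the partner of RNF20 in the same ligase, rose by 0.50 ± 0.09 on the log2 scale (adjusted p = 0.0012), from 101 ± 12.35 to 144 ± 29.7 CPM. Maternal and germ plasm transcripts, which fall in embryos as they age, gave 4 rises and no fall among 8 tested transcripts, where 13.9% of all tested transcripts rose and 13.1% fell, with a median log2 difference of 0.86. Their summed level was 102 to 243 CPM in wild type and 150 to 335 CPM in morpholino libraries. Of the other tissue markers, 2 of 5 epidermis, 1 of 6 endoderm and 1 of 5 neural plate transcripts rose and none fell, and of 7 muscle transcripts 1 rose and 1 fell.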
